A study of Equus caballus with 31 samples.

Results

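Gene expression in the cells of healthy joint (synovial) fluid was compared with that in the blood mononuclear cells (PBMC) of the same horse. The comparison covered the 8 healthy horses that had a library in both deposited tables, ORC_188, ORC_192, ORC_197, ORC_200, ORC_202, ORC_205, ORC_208 and ORC_209, which is 16 of the 31 libraries of the series. The horses were wild type, free of recent medication and sound by examination and imaging, per the series' design text. The labels give no age, sex or batch. Fluid was digested with hyaluronidase and spun to a pellet, RNA of both kinds of sample came from frozen pellets, and poly(A) RNA was sequenced. The labels call both samples mixed mononuclear cells, and no step of them sorts the fluid cells by type. Of the other 15 libraries, 4 came from healthy horses with 1 sample only and 11 from horses with osteoarthritis, a degenerative joint disease.

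Synovial fluid is a filtrate of plasma to which the lining of the joint adds hyaluronan and lubricating proteins. The cells suspended in a healthy joint are few, and include macrophages, lymphocytes and cells shed from the lining. Tissue macrophages are marked by scavenger receptors and the complement protein C1q, and lymphocytes that settle in tissue tend to lose the receptors that guide naive cells through lymph nodes.

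Fluid libraries held 31.5 ± 3.46 M reads and blood libraries 27.5 ± 2.46 M reads (mean ± SD, n = 8 each). Depth was higher in fluid in 6 of 8 horses, a difference of 4.04 M reads that did not pass an exact permutation test over all sign changes (two-sided p = 0.0781; the smallest it can give is 0.00781). Genes with at least 10 reads numbered 13103 ± 345 in fluid and 12853 ± 125 in blood (mean ± SD, n = 8 each), higher in fluid in 7 of 8 horses (two-sided exact permutation p = 0.0234). Of 16799 symbols found once in both tables, 12400 had a mean of at least 1 CPM and were tested. That mean was taken over both tissues, so a gene near 0 in 1 tissue was tested only through its level in the other. The direction of such a gene was set by the filter, and the list counts and medians below include such genes. Levels are CPM, counts-per-million of the shared symbols, and differences are fluid minus blood within horse on the log2(CPM + 1) scale, where low genes appear to change less than they do. All adjusted p-values for genes are from limma with the horse as a block and Benjamini-Hochberg adjustment. Because the authors normalized the fluid and blood tables separately and the tissues were also handled differently, table, handling and tissue cannot be told apart. Fewer cells of a type and less RNA per cell cannot be told apart in these bulk samples either.

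Fluid and blood differed across much of the transcriptome. Of the 12400 genes, 2941 (23.7%) were higher and 2999 (24.2%) lower in fluid at a limma adjusted p below 0.05, which is 47.9% of all genes. At least 2-fold differences were seen in 1325 higher genes (10.7%) and 904 lower genes (7.29%), and at least 8-fold differences in 136 and 85. The median difference over all genes was -0.0029, with quartiles of -0.41 and 0.43. Every fluid lay above every blood for 738 genes (5.95%) and below for 588 (4.74%). In 1792 genes (14.5%) fluid was higher in all 8 horses and in 1938 (15.6%) it was lower in all 8. These shares are the background for the gene groups that follow.

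**Figure D1:**
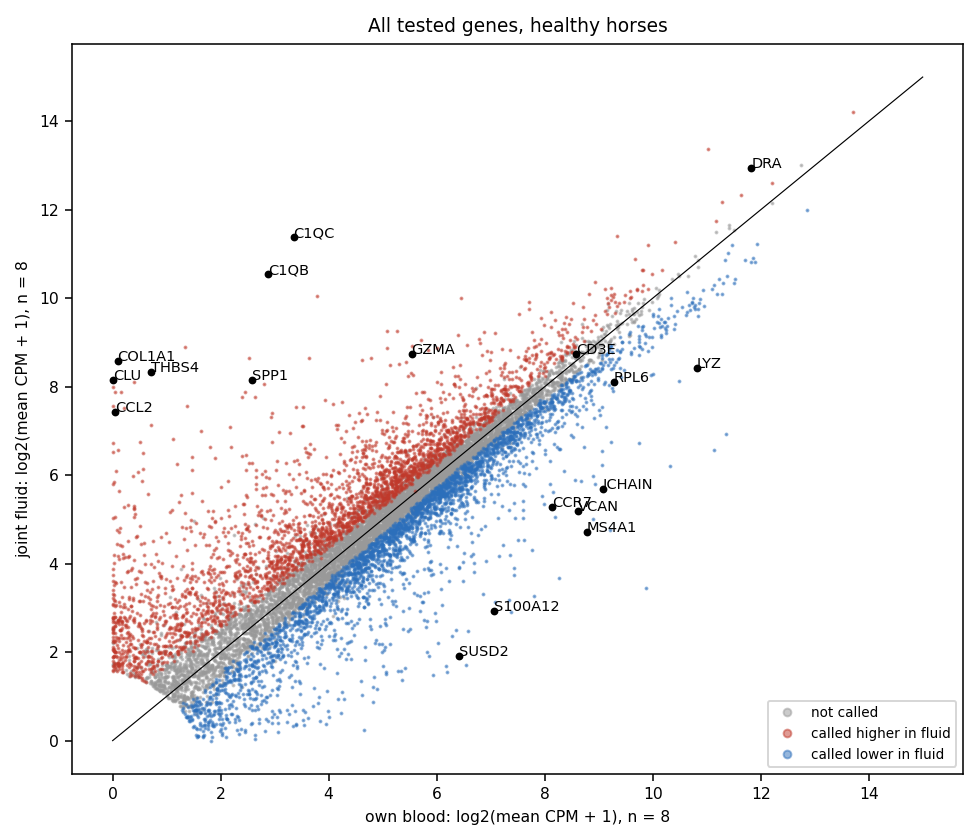
Mean level of each of 12400 tested genes in joint fluid (vertical axis) and own blood (horizontal axis) of 8 healthy horses, as log2(mean CPM + 1), with called genes in colour and the line of equal levels drawn. C1QC, C1QB, COL1A1 and CLU lie far above the line, MS4A1 and S100A12 lie far below it, and CD3E lies on it.

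Markers of tissue-resident macrophages had the highest median difference of the 37 gene lists. Of 13 tested markers of tissue-resident macrophages, 12 were higher in fluid and 0 lower, with a median difference of 5.05. For 10 of the markers every fluid lay above every blood. LYVE1 had at most 3 reads in any blood library, and CD5L and MARCO were near 0 in all of them. These markers could not come out lower. C1QC, a chain of the complement recognition protein C1q (chromosome 2, 32228161 to 32238118, EquCab3.0), had 350.3 to 9102 CPM in fluid (median 1751), against 2.16 to 20.3 in blood (median 7.29). No fluid library came near the blood range, and the log2 difference of 7.63 (SE 0.50, limma adjusted p = 7.63e-07) was the largest rise of any tested gene with a mean of at least 20 CPM. The neighbouring C1QB (chromosome 2, 32217883 to 32224715) had 281 to 4367 CPM in fluid (median 1164), against 2.56 to 13.0 in blood (median 5.16), a difference of 7.35, SE 0.40, limma adjusted p = 2.27e-07. C1QA was not analysed here.

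Scavenger receptors rose as well. The mannose receptor gene MRC1 had 213 to 661 CPM in fluid (median 377), against 6.21 to 21.8 in blood (median 9.25). Every fluid lay above every blood (difference 5.05, SE 0.16, limma adjusted p = 5e-09). CD5L, a macrophage survival factor, had 7.21 to 1206 CPM in fluid (median 69.1), against 0 to 0.334 in blood (median 0.0701), and its groups did not overlap either (difference 6.17, SE 0.65, limma adjusted p = 2.14e-05). STAB1, a scavenger receptor, differed by 5.25, and LYVE1, the hyaluronan receptor of some tissue macrophages, by 5.32. MARCO, a receptor for bacteria and particles, reached 1153 CPM in ORC_205 and lay between 4.13 and 377 in the other 7 fluids, against at most 0.175 in blood (difference 5.40, SE 0.84, limma adjusted p = 0.000329). The complement receptor VSIG4 (3.08), the transcription factor MAF (1.85), the clearance kinase MERTK (1.71) and the sialic acid receptor SIGLEC1 (1.07) were also higher. CD163, the haemoglobin scavenger receptor, had 43.4 to 780.03 CPM in fluid (median 169.8), against 36.5 to 182 in blood (median 93.9). Its groups overlapped and its difference of 0.99 (95% interval 0.07 to 1.91) did not pass the threshold (limma adjusted p = 0.0711), but it was called without ORC_192 or without ORC_200 (limma adjusted p of 0.0431 at most). The summed level of the list was 1815 to 20011 CPM in fluid (median 4374), against 275 to 472 in blood (median 345).

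Genes of lipid handling and lysosomes moved the same way. Of 20 tested genes 17 were higher (13 of them in all 8 horses), 0 lower, and the median difference was 1.91. Among these genes APOE, at 0 reads in blood, could not come out lower. GPNMB, a membrane glycoprotein of lipid-laden macrophages, had 19.5 to 843 CPM in fluid (median 99.5), against 0.184 to 0.520 in blood (median 0.306), without overlap (difference 6.58, SE 0.58, limma adjusted p = 5.66e-06). SPP1, which encodes osteopontin, had 109 to 653 CPM in fluid (median 204), against 2.83 to 13.0 in blood (median 3.81), a difference of 5.45, SE 0.30, limma adjusted p = 2.27e-07. The lipid receptor gene TREM2 had 15.7 to 81.3 CPM in fluid (median 42.0), against 0 to 6.40 in blood (median 0.634), again without overlap (difference 4.27, SE 0.22, limma adjusted p = 1.46e-07). APOE, a lipid carrier, was at 0 reads in all 8 blood libraries and between 3.33 and 400.3 CPM in fluid (median 48.5), at least 956-fold higher by group means against a floor of 3 reads per blood library. FABP5, a fatty acid binding protein, was even across fluids at 194 to 420.04 CPM in fluid (median 293), against 30.9 to 70.2 in blood (median 41.4) (difference 2.73, SE 0.11, limma adjusted p = 2.82e-08). The lysosomal lipase LIPA (2.64), lipoprotein lipase LPL (2.46), CD68 (2.19), and the cathepsins CTSL (1.99) and CTSB (1.84) were higher. The lipid droplet protein PLIN2 (-0.12), the saposin precursor PSAP (0.17) and the fatty acid transporter CD36 (-0.50) were not called. Without ORC_188 and ORC_205, 15 genes of the list were higher and 1 lower.

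**Figure D2:**
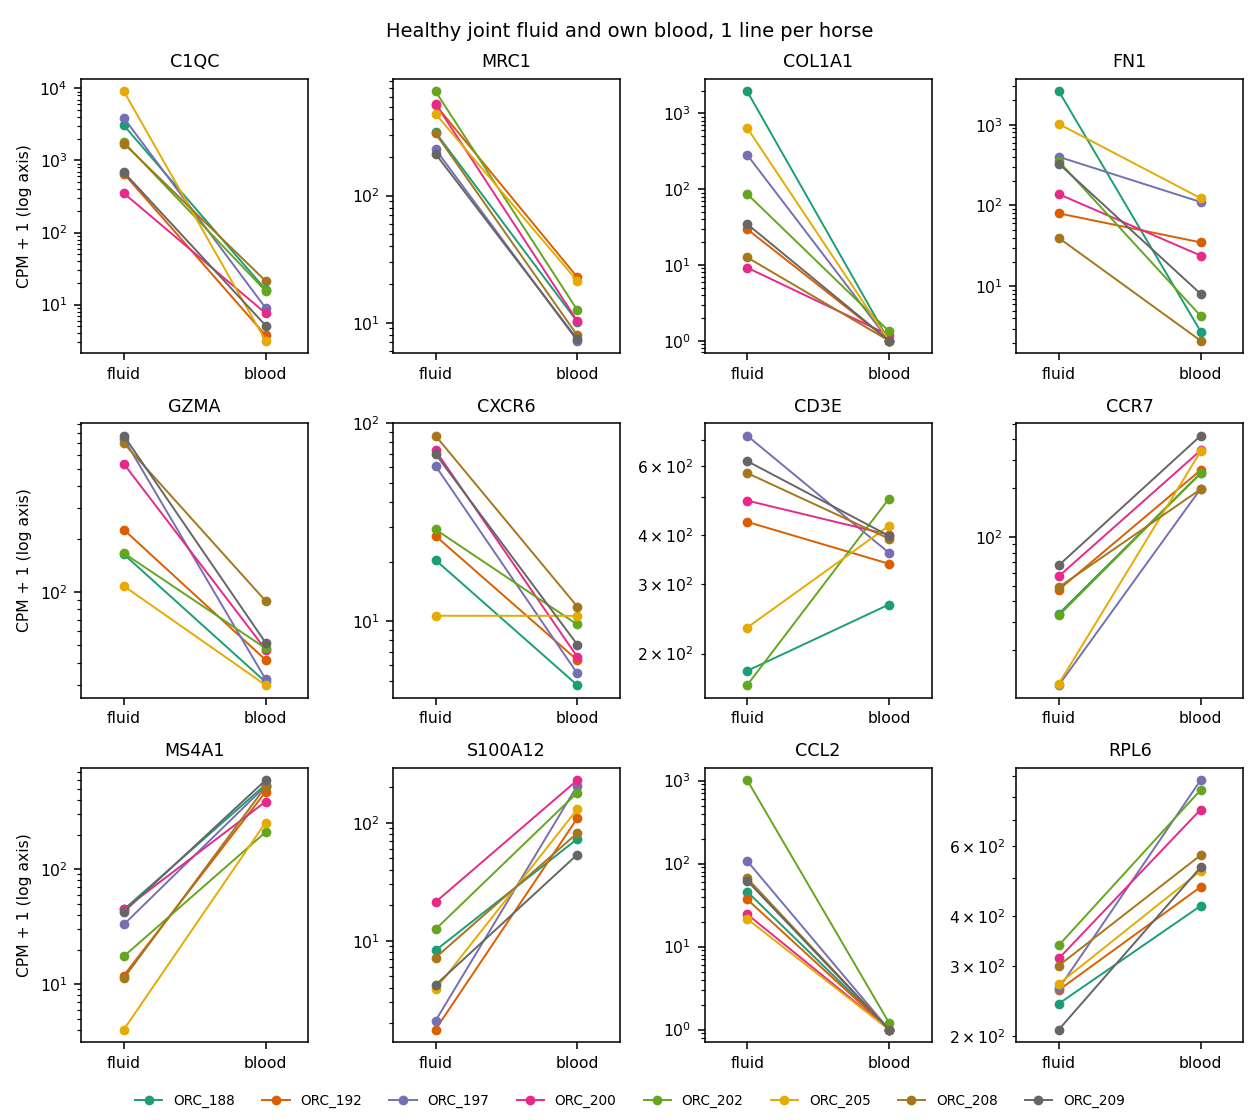
CPM + 1 (log axis) of 12 genes in fluid (left) and own blood (right), with 1 coloured line per horse. C1QC, MRC1, COL1A1, GZMA and CCL2 slope down toward blood in all 8 horses, CCR7, MS4A1, S100A12 and RPL6 slope up in all 8, and CD3E crosses in both directions.

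Complement genes were mostly higher. Over all tested genes 23.7% were higher and 24.2% lower, and the falls of this list do not exceed that share. Of 16 tested genes of this list, which shares C1QB, C1QC and VSIG4 with the macrophage markers, 10 were higher and 3 lower (median 1.49). The anaphylatoxin receptor C3AR1 had 22.5 to 92.8 CPM in fluid (median 73.5), against 0.155 to 0.878 in blood (median 0.332), with no overlap (difference 5.47, SE 0.25, limma adjusted p = 6.44e-08). SERPING1, the C1 inhibitor, had 11.7 to 45.7 CPM in fluid (median 24.3), against 1.01 to 6.44 in blood (median 1.70), a difference of 3.03, SE 0.25, limma adjusted p = 3.34e-06. The proteases C1R (2.39), C1S (1.79) and C2 (2.36) and the receptor C5AR1 (1.19) were higher. The 3 lower genes were the B cell complement receptor CR2 (-3.70), the inhibitor CFI (-0.97) and the regulator CD55 (-1.06); CD55 lost its call when any of 6 horses was left out, up to a limma adjusted p of 0.0855.

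Markers of blood monocytes split. The median difference of the list was 0.88, but its summed level was lower in fluid in every horse except ORC_208 (2278 CPM against 2215 in blood). That sum was 1090 to 2604 CPM in fluid (median 2093), against 1532 to 3607 in blood (median 2927). Mean differences per horse ran from -1.55 in ORC_205 to 0.519 in ORC_202, and only ORC_202 and ORC_209 were above 0. CSF1R, the receptor for the macrophage growth factor, had 674 to 2264 CPM in fluid (median 1169), against 227 to 637 in blood (median 499), with no overlap (difference 1.41, SE 0.13, limma adjusted p = 6.72e-06). CD14, the endotoxin co-receptor, was low in both tissues but higher in fluid, at 5.09 to 28.1 CPM in fluid (median 12.3), against 0.560 to 3.91 in blood (median 2.75) (difference 2.08, SE 0.26, limma adjusted p = 7.4e-05). CLEC12A (1.07) and CCR2 (0.88) completed the 4 higher genes of 7 tested. The 3 lower genes were VCAN, LYZ and CX3CR1. VCAN, the proteoglycan versican made by blood monocytes, had 3.03 to 99.1 CPM in fluid (median 16.04), against 241 to 571 in blood (median 368), with every fluid below every blood (difference -4.20, SE 0.47, limma adjusted p = 3.07e-05). LYZ, lysozyme, likewise had 52.1 to 787 CPM in fluid (median 261), against 914 to 2695 in blood (median 1649) (difference -2.78, SE 0.40, limma adjusted p = 0.000184). CX3CR1, the fractalkine receptor, had 0.443 to 30.6 CPM in fluid (median 13.4), against 18.7 to 58.9 in blood (median 35.1) with overlap (difference -1.84, SE 0.53, limma adjusted p = 0.0133), and its limma adjusted p was 0.0517 without ORC_188 and ORC_205. CCR2 is a receptor of inflammatory monocytes; its limma adjusted p of 0.0384 moved to between 0.0599 and 0.0953 when any of 6 horses was left out.

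Of 14 dendritic cell genes 7 were higher, 3 lower and 4 not called (median 0.34). Over all tested genes 23.7% were higher and 24.2% lower, and the 3 falls do not exceed that share. CADM1, an adhesion molecule of cross-presenting dendritic cells, had 76.0 to 149 CPM in fluid (median 101), against 13.2 to 27.7 in blood (median 15.1), without overlap (difference 2.47, SE 0.15, limma adjusted p = 4.67e-07). XCR1, the chemokine receptor of those cells, differed by 1.93, SE 0.45, limma adjusted p = 0.00422 and the growth factor receptor FLT3 by 1.51, SE 0.36, limma adjusted p = 0.0048, each higher in 6 of 8 horses. CLEC9A, which marks the same cells in mice and humans, did not differ beyond the threshold (-0.16). TCF4, a transcription factor of plasmacytoid dendritic cells and B cells, was lower in all 8 horses (difference -2.26, SE 0.25, limma adjusted p = 2.7e-05), as was LAMP3 (-1.37). Among 15 genes of MHC class II presentation, 6 were higher and 5 lower (median 0.01). The antigen-presenting chain DRA had 2476 to 13927 CPM in fluid (median 6854), against 2085 to 4892 in blood (median 3647), a difference of 0.98, SE 0.19, limma adjusted p = 0.00132, and was the highest of the 6, while the class II regulators CIITA (-0.90) and RFX5 (-1.23) were lower. HLA-DOB, a class II modulator mostly of B cells, had 2.42 to 80.8 CPM in fluid (median 36.8), against 86.0 to 218 in blood (median 146) (difference -2.68, SE 0.44, limma adjusted p = 0.000535). The class II genes have close copies that counting could split, so their values are uncertain. Without ORC_202 or without ORC_208 only 3 of the 6 rises were called.

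Genes of the joint lining and its matrix were mostly higher in fluid, and several were nearly absent from blood. Of 20 tested collagen and matrix protein genes, 17 were higher and 1 lower (median 2.44), and of 13 lining and fibroblast markers 10 were higher and 2 lower (median 2.21). Of these, COL6A1, COL6A3, BGN, COL1A2, LUM, PDGFRA and FAP had at most 2 reads in any blood library, so they could not come out lower. The matrix list, which includes THBS1, summed to 185 to 9293 CPM in fluid (median 854), against 193 to 1281 in blood (median 490). Its sum was lower in fluid than in own blood in ORC_192 (326 against 863), ORC_200 (329 against 514) and ORC_208 (185 against 273). In the other horses it was higher in fluid. COL1A1, a chain of type I collagen (chromosome 11, 25988357 to 26004604), had 8.20 to 1956 CPM in fluid (median 59.5), against 0 to 0.335 in blood (median 0). The groups did not overlap, but the fluids spread widely, from 8.20 in ORC_200 to 1956 in ORC_188 and 642 in ORC_205 (difference 6.38, SE 0.78, limma adjusted p = 6.04e-05). COL6A1, COL6A3 and the proteoglycan gene BGN were at 0 reads in all 8 blood libraries. By group means they were at least 1714-fold, 501-fold and 825-fold higher in fluid against a floor of 3 reads per blood library. Their fluids also spread widely (SD of log2 levels 2.37, 2.50 and 2.31), so these ratios of means are not the least difference of a single horse. At that floor the mean log2 difference was 3.94 for COL6A3, 5.28 for BGN and higher for COL6A1. FN1, which encodes fibronectin, had 38.6 to 2584 CPM in fluid (median 339), against 1.12 to 122 in blood (median 15.0); the tissues overlapped across horses, although fluid was higher in 8 of 8 (difference 4.30, SE 0.78, limma adjusted p = 0.000963).

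Fibroblast markers varied in the same way. The proteoglycan decorin gene DCN had 1.98 to 125 CPM in fluid (median 23.5), against 0 to 0.669 in blood (median 0), without overlap (difference 4.57, SE 0.57, limma adjusted p = 7.08e-05). VCAM1, an adhesion molecule of the lining, had 2.51 to 29.2 CPM in fluid (median 9.20), against 0 to 0.673 in blood (median 0.144) (difference 3.16, SE 0.36, limma adjusted p = 3.8e-05), and HAS1, a hyaluronan synthase, 0.893 to 81.4 CPM in fluid (median 5.28), against 0 to 0.625 in blood (median 0.165) (difference 2.71, SE 0.56, limma adjusted p = 0.00221). LUM (2.63), HTRA1 (2.40), PDGFRA (2.21), FAP (1.85) and PDGFRB (1.80) were also higher. THY1 was not called (-0.00, 95% interval -1.21 to 1.21). FBLN1 was lower in all 8 horses, at 0.0958 to 1.02 CPM in fluid (median 0.804), against 4.02 to 15.3 in blood (median 9.18) (difference -2.43, SE 0.25, limma adjusted p = 1.73e-05). PRG4, the lubricin gene of the lining, was not analysed here. The summed level of the lining list was 102 to 902 CPM in fluid (median 196.4), against 125 to 238 in blood (median 156); CD55 and THY1, which leukocytes also make, are part of that sum. This sum was lower in fluid than in own blood in ORC_192, ORC_200, ORC_202, ORC_208 and ORC_209. It was higher in ORC_188 (790 against 221), ORC_197 (437 against 152) and ORC_205 (902 against 135). The mean log2 difference over the list was above 0 in every horse (0.394 to 3.32). Without ORC_188 and ORC_205, the fluids richest in matrix genes, 14 matrix genes were higher and 1 lower (median 1.54) and 9 lining genes were higher and 2 lower (median 1.59).

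The matrix gene that fell was THBS1, a thrombospondin that platelets and monocytes carry, with 9.78 to 159 CPM in fluid (median 38.8), against 159.9 to 1107 in blood (median 382). Every fluid lay below every blood (difference -3.14, SE 0.46, limma adjusted p = 0.000222). Its relative THBS4, a thrombospondin of tendon and other connective tissue, was among the 10 largest rises, at 17.8 to 693 CPM in fluid (median 309.96), against 0 to 1.46 in blood (median 0.545) (difference 6.69, SE 0.63, limma adjusted p = 9.09e-06). CLU, the secreted chaperone clusterin, had 11.5 to 992 CPM in fluid (median 113), against 0 to 0.0372 in blood (median 0) (difference 6.78, SE 0.65, limma adjusted p = 1.12e-05). Platelet markers were lower in fluid, as given further on; their part in the THBS1 result was not tested.

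Of 14 tested enzymes that remodel matrix and their inhibitors, 11 were higher and 0 lower (median 1.40). MMP14, MMP19, MMP2 and ADAMTS1 had at most 2 reads in any blood library, so they could not come out lower. PLAU, the urokinase protease, had 7.27 to 128 CPM in fluid (median 15.2), against 0.665 to 1.60 in blood (median 1.12), with no overlap (difference 3.47, SE 0.40, limma adjusted p = 4.12e-05). Its receptor PLAUR had 29.9 to 369 CPM in fluid (median 52.9), against 4.44 to 15.2 in blood (median 11.3) (difference 2.58, SE 0.28, limma adjusted p = 2.51e-05). The membrane protease MMP14 (3.90) and the inhibitors TIMP3 (3.82) and TIMP1 (1.32) were higher, and MMP1 (0.13), TIMP2 (0.44) and ADAMTS1 (1.14) were not called, although TIMP2 was without ORC_200 (limma adjusted p = 0.0253). Of 11 cartilage genes 3 were tested, and COL2A1, the type II collagen gene, was the 1 called (1.48); the list summed to 8.80 to 18.4 CPM in fluid and 4.06 to 12.1 in blood. Of 9 endothelial genes 4 were higher, led by ERG (1.95) and PLVAP (1.63), while VWF, also a platelet gene, was lower (-2.51). ERG had at most 3 reads in any blood library and could not come out lower. CDH5, an endothelial cadherin, lost its call without ORC_188 (limma adjusted p = 0.0762) or ORC_197 (0.0546), and only 2 endothelial rises were called when either of these horses was left out.

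**Figure D3:**
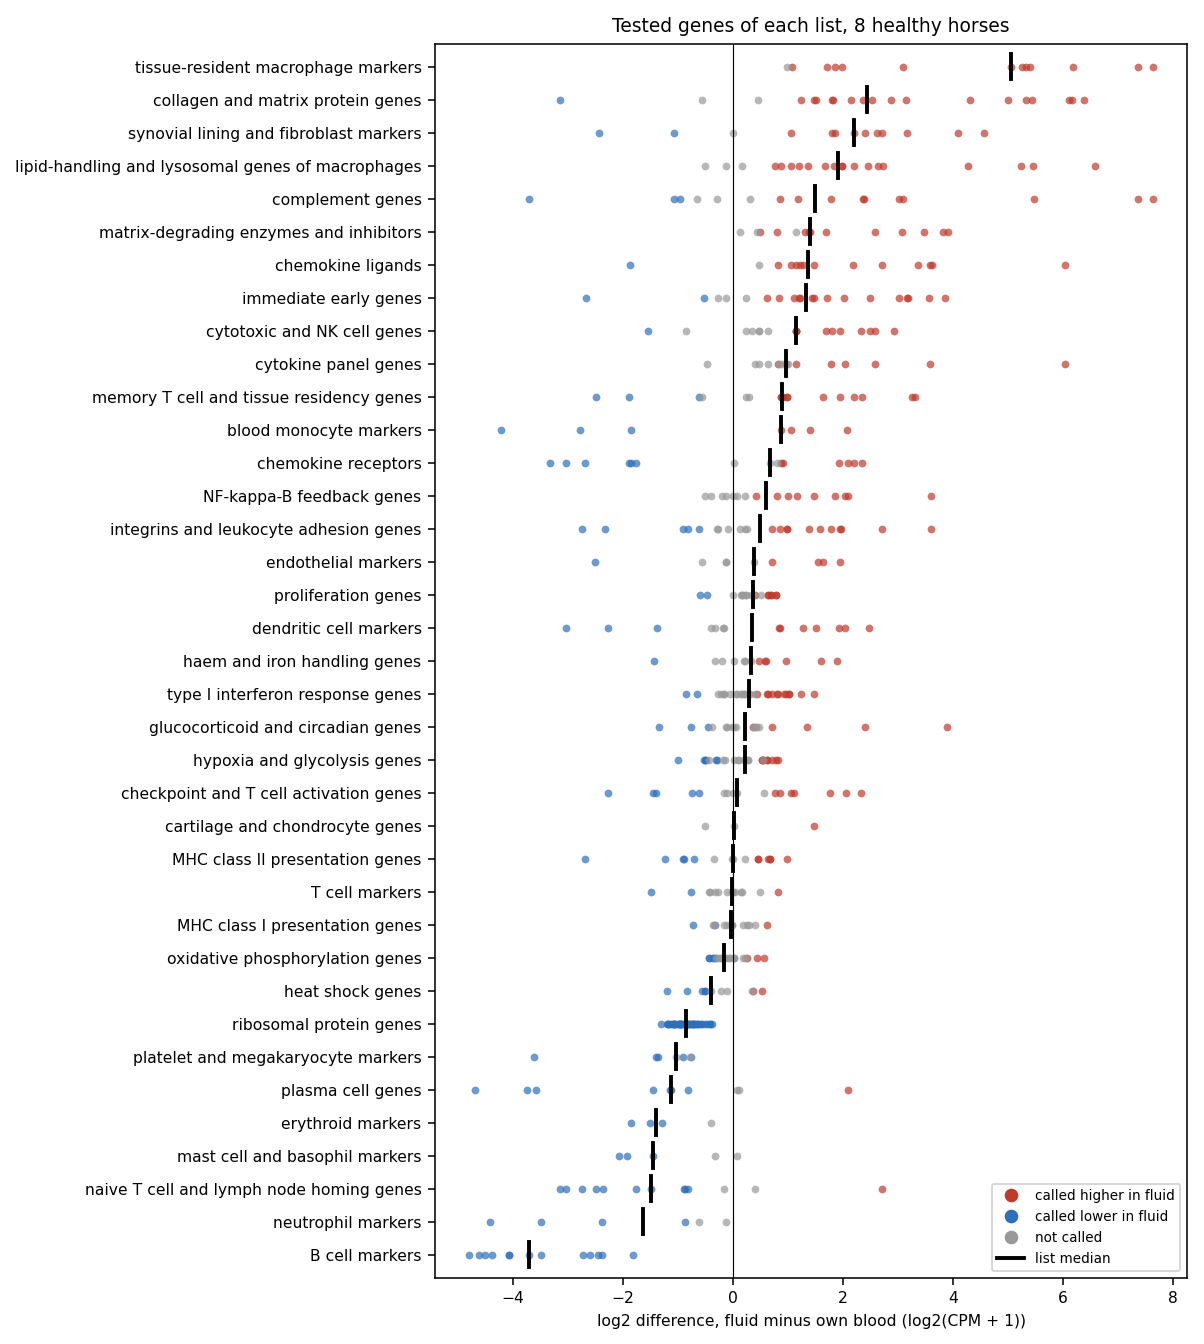
Log2 difference, fluid minus own blood, of each tested gene (points) in 37 gene lists, with the list median as a black bar and lists ordered by it. Resident macrophage markers have the highest median (5.05) and B cell markers the lowest (-3.70), with T cell markers at -0.02.

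Most T cell identity genes were not called in either direction. Of 15 T cell markers 1 was higher, 2 were lower and 12 were not called (median -0.02). CD3E, a chain of the T cell receptor complex (chromosome 7, 26728316 to 26738870), had 165 to 717 CPM in fluid (median 461), against 266 to 496 in blood (median 395). Fluid was higher in 5 of 8 horses and the difference of -0.02 (95% interval -0.57 to 0.53; limma adjusted p = 0.95) changed sign without ORC_188, ORC_202 or ORC_205, whose fluids held the least CD3E. CD2, an adhesion receptor of T and NK cells, was higher (0.83, SE 0.23, limma adjusted p = 0.0106), and TRAT1, a receptor adaptor, lower (-1.48, SE 0.30, limma adjusted p = 0.00209). UBASH3A, a brake on receptor signalling, was lower by limma (-0.77) but not without ORC_188 or ORC_205 (limma adjusted p of 0.056 at most). The summed T cell level was 1446 to 5447 CPM in fluid (median 4099), against 2785 to 4245 in blood (median 3468).

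Genes of naive T cells and lymph node homing fell. Of 13 tested, 10 were lower and 1 higher (median -1.49), and the 10 falls were called whichever horse was left out. CCR7, the lymph node homing receptor (chromosome 11, 22101809 to 22126328), had 11.2 to 65.9 CPM in fluid (median 39.4), against 196.01 to 420.3 in blood (median 252), without overlap (difference -3.03, SE 0.26, limma adjusted p = 4.58e-06). S1PR1, the receptor by which lymphocytes leave tissue, had 22.1 to 98.9 CPM in fluid (median 43.1), against 173 to 318 in blood (median 279), without overlap (difference -2.49, SE 0.21, limma adjusted p = 4.28e-06). The transcription factors of naive T cells LEF1 (-3.13) and TCF7 (-2.35) also lay below every blood library, and KLF2, which controls homing receptors, was lower too (-0.88). The exception was the integrin ITGA6, at 28.2 to 99.2 CPM in fluid (median 64.2), against 2.43 to 19.8 in blood (median 9.23) (difference 2.71, SE 0.25, limma adjusted p = 7.31e-06). IL7R was not analysed here. CCR7 is also made by B cells, whose markers were lower in fluid; their part in these falls was not tested.

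Genes of memory and tissue residency rose in 12 of 18 cases and fell in 3 (median 0.90). CCR2 of this list is also a monocyte marker, and macrophage markers were higher in the same fluids. The part of cells other than T cells in these rises was not tested. RGS1, a signalling regulator of lymphocytes in tissue, had 127 to 404 CPM in fluid (median 255.7), against 12.01 to 112 in blood (median 20.2), without overlap (difference 3.30, SE 0.21, limma adjusted p = 7.02e-07). The transcription factor gene BHLHE40 had 265 to 1026 CPM in fluid (median 478), against 40.2 to 71.2 in blood (median 50.2) (difference 3.26, SE 0.20, limma adjusted p = 5.13e-07). CXCR6, a chemokine receptor of resident T cells, had 9.65 to 85.5 CPM in fluid (median 44.0), against 3.75 to 10.8 in blood (median 6.10); the ranges met only through the lowest fluid (difference 2.35, SE 0.34, limma adjusted p = 0.000204). The collagen-binding integrin ITGA1 (1.94), PRDM1 (1.64), the hyaluronan receptor CD44 (0.99), the epithelial-homing integrin ITGAE (0.98, limma adjusted p = 0.00129) and CXCR3 (0.90, limma adjusted p = 0.00862) were higher. CD69, the early activation and residency marker, was higher by 0.88 but lost the call when any of 5 horses was left out. The 3 lower genes were the egress receptor S1PR5 (-2.48, SE 0.29, limma adjusted p = 3.91e-05), CCR6 (-1.88) and the integrin ITGA4 (-0.62), which lost its call when any of 5 horses was left out (limma adjusted p of 0.0781 to 0.108).

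Cytotoxic genes were higher in most horses. Of 17 tested, 10 were higher, each at least 2-fold, and 1 was lower (median 1.15). GZMA, a granzyme, had 108 to 773 CPM in fluid (median 380.4), against 28.8 to 88.4 in blood (median 43.4), without overlap (difference 2.93, SE 0.28, limma adjusted p = 1.03e-05). FASLG, the death ligand, had 39.6 to 244 CPM in fluid (median 145), against 13.5 to 30.0 in blood (median 20.6) (difference 2.49, SE 0.29, limma adjusted p = 4.3e-05), and CTSW, a protease of killer cells, 237 to 1650.2 CPM in fluid (median 726), against 113 to 249 in blood (median 202.4) (difference 1.95, SE 0.28, limma adjusted p = 0.000189). CD8A, the co-receptor of cytotoxic T cells, had 88.0 to 351 CPM in fluid (median 197.8), against 57.1 to 125 in blood (median 86.1); fluid was higher in 7 of 8 horses (difference 1.15, SE 0.23, limma adjusted p = 0.00196). IFNG, interferon gamma, was at 0 to 39.1 CPM in fluid (median 9.66), against 0.332 to 0.735 in blood (median 0.397) and was not detected in the fluid of ORC_202 (difference 2.59, SE 0.47, limma adjusted p = 0.000979). The transcription factors of cytotoxic cells went opposite ways: EOMES was higher (1.69, SE 0.34, limma adjusted p = 0.00201) and TBX21 lower in all 8 horses, at 35.1 to 182 CPM in fluid (median 121), against 127 to 627 in blood (median 365) (difference -1.54, SE 0.16, limma adjusted p = 1.57e-05). PRF1, the pore protein, was not called (0.64) except without ORC_205 (limma adjusted p = 0.00753).

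Of 17 checkpoint and activation genes 7 were higher and 5 lower (median 0.08). Over all tested genes 23.7% were higher and 24.2% lower, so the share of falls was near that of all genes. LAG3, an inhibitory receptor, had 91.4 to 366 CPM in fluid (median 239), against 39.1 to 72.4 in blood (median 51.3), without overlap (difference 2.06, SE 0.15, limma adjusted p = 1.65e-06). HAVCR2, which encodes TIM-3, had 5.36 to 34.2 CPM in fluid (median 19.5), against 1.02 to 4.24 in blood (median 3.11) (difference 2.33, SE 0.29, limma adjusted p = 6.57e-05), and TIGIT 3.41 to 58.1 CPM in fluid (median 43.7), against 3.81 to 13.3 in blood (median 6.95) (difference 1.76, SE 0.33, limma adjusted p = 0.00125). PDCD1, the PD-1 gene, did not differ beyond the threshold (0.00, 95% interval -0.46 to 0.46). The co-stimulatory receptors TNFRSF4 (-2.27, SE 0.30, limma adjusted p = 0.000102) and TNFRSF18 (-1.45) and the inhibitory receptor BTLA (-1.40, SE 0.22, limma adjusted p = 0.000422) were lower. FOXP3, the regulatory T cell factor, was lower (-0.74), with a limma adjusted p of 0.053 without ORC_188. CTLA4, another inhibitory receptor, was higher by 1.11 but lost the call when any of 7 horses was left out.

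B cell genes were lower without exception: 13 of 13 tested markers were called, each at least 2-fold, 10 of them with every fluid below every blood (median -3.70). All 13 were called whichever horse was left out. MS4A1, which encodes CD20 (chromosome 12, 23852599 to 23866388), had 3.03 to 43.7 CPM in fluid (median 24.3), against 209.1 to 595 in blood (median 495) (difference -4.37, SE 0.30, limma adjusted p = 1.08e-06). PAX5, the B cell identity factor, had 0 to 5.84 CPM in fluid (median 0.993), against 26.4 to 139.8 in blood (median 59.2) (difference -4.62, SE 0.27, limma adjusted p = 3.39e-07). The highest fluid stayed below the lowest blood for both. The smallest differences were those of VPREB3 (-1.82), BANK1 (-2.37) and the kinase BLK (-2.45). The list summed to 73.1 to 310.2 CPM in fluid (median 196.2), against 998 to 3000.04 in blood (median 2379).

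Plasma cell genes were lower in 7 of 10 cases and higher in 1 (median -1.13). JCHAIN, which joins secreted antibodies, had 14.0 to 123 CPM in fluid (median 30.2), against 147 to 1363 in blood (median 488), without overlap (difference -3.58, SE 0.30, limma adjusted p = 3.58e-06). The secretory chaperone MZB1 had 0 to 6.77 CPM in fluid (median 0.713), against 7.56 to 105 in blood (median 25.8) (difference -3.74, SE 0.35, limma adjusted p = 9.09e-06), and POU2AF1, a co-activator of B and plasma cells, 0 to 24.2 CPM in fluid (median 6.03), against 75.1 to 261 in blood (median 170.1) (difference -4.67, SE 0.42, limma adjusted p = 6.53e-06). SDC1, the syndecan of plasma cells and also of epithelial and stromal cells, was higher (2.08, SE 0.35, limma adjusted p = 0.000594).

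Markers of granulocytes, platelets and red cells were lower in fluid or low in both tissues. Of 6 neutrophil genes 4 were lower and 0 higher (median -1.63). S100A12, a calcium-binding protein of neutrophils and monocytes, had 0.767 to 20.3 CPM in fluid (median 4.70), against 52.9 to 229 in blood (median 119) (difference -4.41, SE 0.37, limma adjusted p = 4.02e-06). The gelatinase MMP9 had 15.3 to 173 CPM in fluid (median 24.1), against 121 to 862 in blood (median 475); it was lower in all 8 horses with overlap between horses (difference -3.49, SE 0.39, limma adjusted p = 3.22e-05). The neutrophil list summed to 36.7 to 764 CPM in fluid (median 119), against 282 to 1347 in blood (median 736), and S100A8, S100A9, CXCR1 and CXCR2 were not analysed here.

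Of 7 platelet genes 5 were lower and 0 higher (median -1.03). TUBB1, the platelet tubulin, was at or below 0.665 CPM in every fluid, against 0.0418 to 70.1 in blood (median 16.7; difference -3.61, SE 0.53, limma adjusted p = 0.000213), the lowest blood being that of ORC_202. The list summed to 16.1 to 340.4 CPM in fluid (median 48.2), against 67.7 to 268 in blood (median 159); the highest fluid was again ORC_202, and without that horse all 7 genes were lower. HBA2, a haemoglobin chain with close copies, was at 0 reads in all 8 fluids and at 0.312 to 8.87 CPM in blood, at least 26.2-fold lower in fluid by group means against a floor of 3 reads per fluid library. Of 4 erythroid genes 3 were lower (median -1.40, or -1.33 with HBA2 at that bound). Of 5 mast cell and basophil genes 3 were lower, among them the protease CMA1 (-2.07, SE 0.34, limma adjusted p = 0.000543).

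Most chemokine ligands were higher in fluid, 12 of 14 tested with 1 lower (median 1.37). Among the ligands CCL2 was near 0 in every blood library and could not come out lower. CCL2, the main attractant of monocytes (chromosome 11, 38886881 to 38888825), was at or below 0.209 CPM in every blood, and in fluid lay between 20.5 and 106 in 7 horses and at 1011 in ORC_202. The difference was 6.03, SE 0.48, limma adjusted p = 2.79e-06, and 5.50 without ORC_202 (limma adjusted p = 9.2e-07). CXCL16, the ligand of CXCR6, had 122 to 444 CPM in fluid (median 316), against 36.0 to 61.6 in blood (median 40.4), without overlap (difference 2.71, SE 0.19, limma adjusted p = 1.24e-06). CCL3 had 54.6 to 641 CPM in fluid (median 141), against 6.37 to 48.3 in blood (median 11.2) (difference 3.36, SE 0.26, limma adjusted p = 2.47e-06), and CXCL1, an attractant of neutrophils, 47.8 to 1762 CPM in fluid (median 151), against 2.13 to 189 in blood (median 13.3) (difference 3.58, SE 0.25, limma adjusted p = 1e-06). For CXCL1 the groups overlapped because the blood of ORC_202, at 189 CPM, also stood above the other 7.

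CCL8 (3.62), CCL14 (2.19), CXCL11 (1.47) and CCL22 (1.28) were higher as well. CXCL8, the interleukin-8 gene, was higher by 0.82, but not when ORC_200, ORC_202, ORC_208 or ORC_209 was left out (limma adjusted p of 0.085 at most). CXCL10 was higher by 1.15 and lost the call when any of 6 horses was left out. CCL5 was not called (0.47, 95% interval -0.14 to 1.09) except without ORC_205 (limma adjusted p = 0.0265). CXCL14 was lower in all 8 horses (-1.87, SE 0.37, limma adjusted p = 0.00177).

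The receptors moved in opposite directions, with 6 of 15 higher and 6 lower (median 0.68), against 23.7% and 24.2% of all tested genes. Beside CXCR6 and CXCR3, the rises included CCR1, at 33.5 to 96.0 CPM in fluid (median 52.9), against 6.95 to 22.8 in blood (median 11.6) (difference 2.10, SE 0.28, limma adjusted p = 0.000124). CCR9, a receptor of gut-homing lymphocytes, had 0 to 3.88 CPM in fluid (median 0.699), against 8.11 to 32.6 in blood (median 15.3), without overlap (difference -3.31, SE 0.23, limma adjusted p = 8.84e-07). CCR10, a receptor of skin-homing and antibody-secreting cells, was lower (-2.68), as were CCR6 (-1.88) and CCR4 (-1.76). CXCR4, the receptor for CXCL12, was not called (0.80, 95% interval 0.08 to 1.52) except without ORC_202 or ORC_205 (limma adjusted p of 0.0293 at most).

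**Figure D4:**
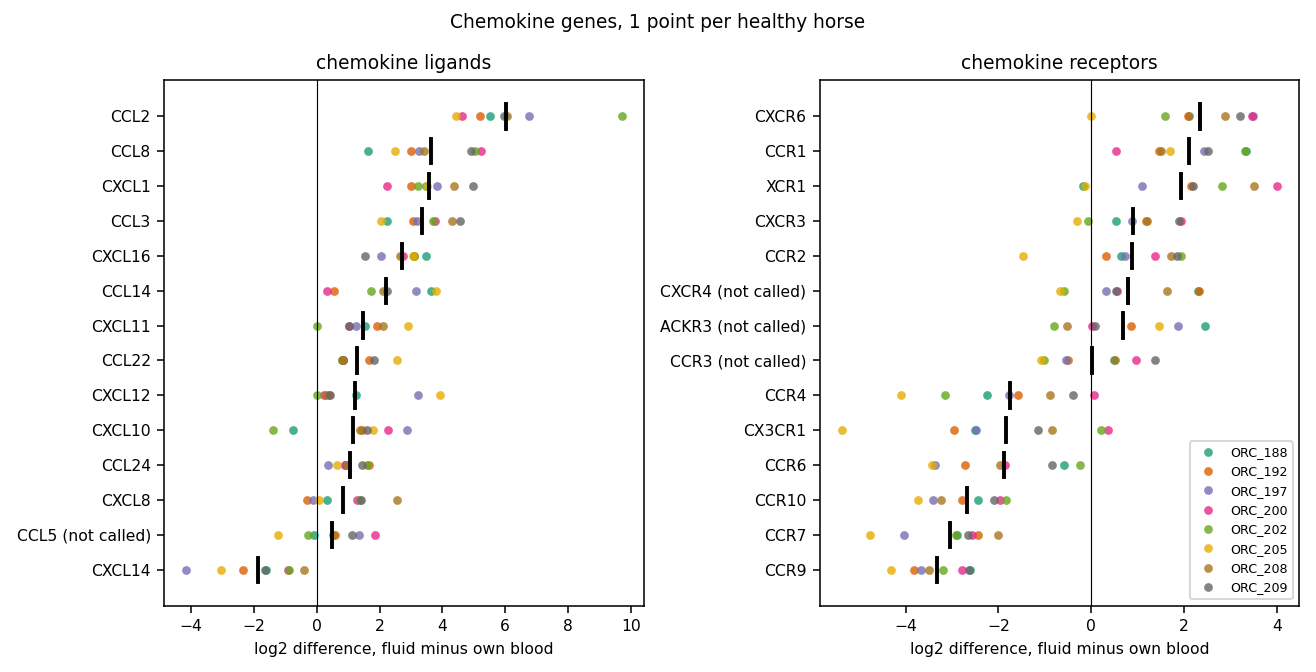
Log2 difference, fluid minus own blood, of 14 chemokine ligands (left) and 14 of the 15 chemokine receptors (right), with 1 coloured point per horse and the mean as a black bar. CCL2 of ORC_202 (9.71) stands apart from the other 7 horses (4.43 to 6.75), and CCR7 and CCR9 lie below 0 in all 8 horses.

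Of the 23 cytokines measured by the study's immunoassay, which was not used here, 15 had a tested gene; 8 were higher and 0 lower (median 0.96). IL1A and CCL11, which were not called, had at most 3 reads in any blood library and could not come out lower. TNF had 15.3 to 95.2 CPM in fluid (median 27.0), against 4.44 to 11.9 in blood (median 8.45), without overlap (difference 1.77, SE 0.26, limma adjusted p = 0.000207). IL1B had 3.92 to 387 CPM in fluid (median 14.4), against 1.99 to 26.6 in blood (median 3.24) and was higher in all 8 horses (difference 2.03, SE 0.36, limma adjusted p = 0.000804), the highest values of both tissues being those of ORC_202. IL6 had 0.121 to 8.00 CPM in fluid (median 0.939), against 0 to 0.561 in blood (median 0.280) and was not called (difference 0.84, 95% interval 0.07 to 1.61), nor was IL10 (0.65) or IL18 (-0.47); IL10 was called without ORC_209 (limma adjusted p = 0.0396). Without ORC_200 or ORC_208 only 6 of the 8 were called.

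Genes that cells switch on within minutes of a stimulus were mostly higher: 15 of 20 immediate early genes were called higher and 2 lower (median 1.32). NR4A2, a nuclear receptor, had 46.6 to 455 CPM in fluid (median 156), against 5.78 to 29.2 in blood (median 12.9), without overlap (difference 3.57, SE 0.22, limma adjusted p = 5.91e-07). FOSB, an AP-1 subunit, had 133 to 859 CPM in fluid (median 506), against 14.2 to 171 in blood (median 43.1) (difference 3.19, SE 0.35, limma adjusted p = 2.82e-05), and EGR3 2.40 to 513 CPM in fluid (median 36.0), against 0.589 to 12 in blood (median 1.10) (difference 3.85, SE 0.50, limma adjusted p = 9.65e-05). EGR1 (-0.12) and JUNB (0.24) were not called, although JUNB was without ORC_208 (limma adjusted p = 0.0389). MYC, a growth regulator, was lower, at 27.4 to 61.2 CPM in fluid (median 37.3), against 167 to 317 in blood (median 251), with every fluid below every blood (difference -2.66, SE 0.13, limma adjusted p = 1.08e-07), and IER2 was lower (-0.52). The list summed to 4269.8 to 19082 CPM in fluid and 2571 to 10508 in blood, the highest of each being ORC_202. A warm hyaluronidase incubation is described for synovial fluid and not for blood, so handling and tissue cannot be told apart for these genes.

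Feedback genes of NF-kappa-B, a transcription factor of inflammation, were higher in 9 of 16 cases and lower in 0 (median 0.61). ICAM1, an adhesion molecule, had 66.6 to 225 CPM in fluid (median 109), against 5.23 to 12.1 in blood (median 8.91), without overlap (difference 3.59, SE 0.18, limma adjusted p = 1.11e-07). TNFAIP3, the A20 inhibitor, had 113 to 748 CPM in fluid (median 295), against 45.3 to 90.4 in blood (median 64.7) (difference 2.09, SE 0.24, limma adjusted p = 3.58e-05), and CD83 75.2 to 479 CPM in fluid (median 140.2), against 19.5 to 46.2 in blood (median 38.6) (difference 2.04, SE 0.27, limma adjusted p = 0.000107). The subunits NFKB1 (-0.12), NFKB2 (-0.39) and RELB (-0.19) were not called, although NFKB2 was without ORC_202 or ORC_205 (limma adjusted p of 0.0308 at most). Among 18 glucocorticoid and circadian genes 5 were higher and 3 lower (median 0.22). SGK1, a stress-induced kinase, had 141 to 1119 CPM in fluid (median 294), against 12.4 to 64.7 in blood (median 17.1), without overlap (difference 3.88, SE 0.17, limma adjusted p = 4.62e-08), and the clock gene PER1 77.8 to 624 CPM in fluid (median 233), against 31.1 to 64.2 in blood (median 43.3) (difference 2.40, SE 0.29, limma adjusted p = 5.26e-05). In the same list FKBP5 (-0.37, not called) and TSC22D3 (-0.46, lower) both depended on single horses. FKBP5 was called without ORC_208 (limma adjusted p = 0.0478), and TSC22D3 lost its call when any of 5 horses was left out (limma adjusted p of 0.058 to 0.106).

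Interferon response genes rose in 12 of 28 cases and fell in 2 (median 0.30). OAS3, an antiviral enzyme, had 178 to 338 CPM in fluid (median 218), against 39.6 to 267 in blood (median 79.1); the highest blood, that of ORC_202, lay within the fluid range (difference 1.47, SE 0.22, limma adjusted p = 0.000225). IFI27 (1.24) and IFIH1 (1.03) were higher and MX1 (0.29) and IRF7 (0.08) were not called, although MX1 was without ORC_202 (limma adjusted p = 0.0429). The count of higher genes was 14 without ORC_202 and 8 without ORC_209. ISG20 was lower (-0.86, limma adjusted p = 0.00846); its limma adjusted p was 0.0523 without the horse as a replicate block. Of 14 genes of MHC class I presentation 1 was higher, 2 lower and 11 not called (median -0.03); ERAP1 (-0.32) lost its call without ORC_188, ORC_192 or ORC_209.

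Ribosomal protein genes were lower as a set, 49 of 49 tested (median -0.86), 47 of them in all 8 horses. RPS6 had 769.6 to 1252 CPM in fluid (median 848), against 1406 to 2768 in blood (median 1827), without overlap (difference -1.10, SE 0.11, limma adjusted p = 1.84e-05). RPL6 had 207.04 to 338 CPM in fluid (median 266), against 424 to 879 in blood (median 549.99) (difference -1.15, SE 0.12, limma adjusted p = 1.54e-05). The differences ran from -1.31 for RPL35 to -0.38 for RPL15, and the list summed to 29145 to 46934 CPM in fluid, against 46761 to 93279.8 in blood. Ribosomal protein genes have many processed copies that share reads, so single values are uncertain. B cell and naive T cell genes were also lower in the same samples; their part in the ribosomal result was not tested.

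Energy genes differed little in size, and 1 heat shock gene was called at least 2-fold lower. Of 26 hypoxia and glycolysis genes 9 were higher and 6 lower, none 2-fold (median 0.21). GAPDH, a glycolytic enzyme, had 563 to 1109 CPM in fluid (median 703), against 279 to 598 in blood (median 389.8) (difference 0.82, SE 0.11, limma adjusted p = 0.000106), while CA9, a hypoxia-induced carbonic anhydrase, was lower in all 8 horses (-0.99, SE 0.21, limma adjusted p = 0.0029). Of 25 genes of oxidative phosphorylation 3 were higher and 5 lower (median -0.16); only 1 fall was called without ORC_188 and ORC_205. Heat shock genes were lower in 5 of 11 cases and higher in 2 (median -0.40), with the co-chaperone BAG3 at 25.8 to 45.7 CPM in fluid (median 40.6), against 56.6 to 124 in blood (median 91.2), every fluid below every blood (difference -1.19, SE 0.11, limma adjusted p = 9.96e-06). Proliferation genes were higher in 7 of 18 cases and lower in 2 (median 0.36), none 2-fold, led by the replication helicase MCM4 (0.78, SE 0.14, limma adjusted p = 0.00085); 3 were higher without ORC_200 or ORC_209.

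Among iron and adhesion genes rises outnumbered falls. Over all tested genes 23.7% were higher and 24.2% lower, and the falls of neither list exceeded that share. Of 13 haem and iron genes 6 were higher and 1 lower (median 0.33). TFRC, the transferrin receptor, had 60.2 to 139.8 CPM in fluid (median 85.9), against 8.94 to 35.4 in blood (median 26.5), without overlap (difference 1.90, SE 0.17, limma adjusted p = 5.77e-06), and the iron exporter SLC40A1 was higher (1.60, SE 0.41, limma adjusted p = 0.00733) but not without ORC_188 and ORC_205 (limma adjusted p = 0.0513). HMOX1, the haem-degrading enzyme, was not called (0.23, 95% interval -0.22 to 0.68), and the iron transporter SLC11A1 was lower (-1.44). Without ORC_188 and ORC_205 the list held 3 higher and 3 lower genes. Of 22 integrin and adhesion genes 11 were higher and 5 lower (median 0.49); beside ICAM1 and ITGA6 the rises included ALCAM (1.78, SE 0.14, limma adjusted p = 2.47e-06), and ICAM2 was lower with every fluid below every blood (-2.31, SE 0.23, limma adjusted p = 1.44e-05).

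The 10 largest rises with a mean of at least 20 CPM were C1QC, C1QB, CLU, THBS4, GPNMB, COL1A1, CD5L, COL6A1 and COL1A2 and 1 gene known in the files by an Ensembl identifier only. Of the 10 largest falls 6 had an identifier only. POU2AF1, ARSI and SUSD2 were also among them. ARSI, a sulfatase, had 0.873 to 7.55 CPM in fluid (median 1.16), against 24.9 to 143 in blood (median 97.4) (difference -4.90, SE 0.28, limma adjusted p = 3.39e-07), and SUSD2, a membrane protein with sushi domains, 0 to 10.9 CPM in fluid (median 1.27), against 17.9 to 196.3 in blood (median 79.1) (difference -4.78, SE 0.30, limma adjusted p = 6.02e-07). For both, every fluid lay below every blood.

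The horses shared this pattern to different degrees. The correlation across the 12400 genes of a horse's differences with the mean of the other 7 was 0.707 in ORC_202, 0.788 to 0.858 in 6 horses and 0.877 in ORC_192; it is a description, since genes are not independent. Fluids varied more than bloods: the median SD of log2 levels was 0.448 among fluids and 0.330 among bloods, and 72.1% of genes had the larger SD in fluid. The matrix list varied most, with mean differences per horse from 0.90 in ORC_208 to 5.62 in ORC_188, while B cell markers lay between -4.56 and -2.60 and ribosomal genes between -1.35 and -0.46 in every horse. ORC_202 and ORC_205 had the smallest cytotoxic differences (0.07 and 0.02, against 0.77 to 2.02 in the other 6), and also the lowest mean differences of T cell markers (-1.47 and -1.0). In ORC_202 the platelet list had a mean difference of 0.0033, whereas the other 7 lay below 0 (-2.19 to -0.76).

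**Figure D5:**
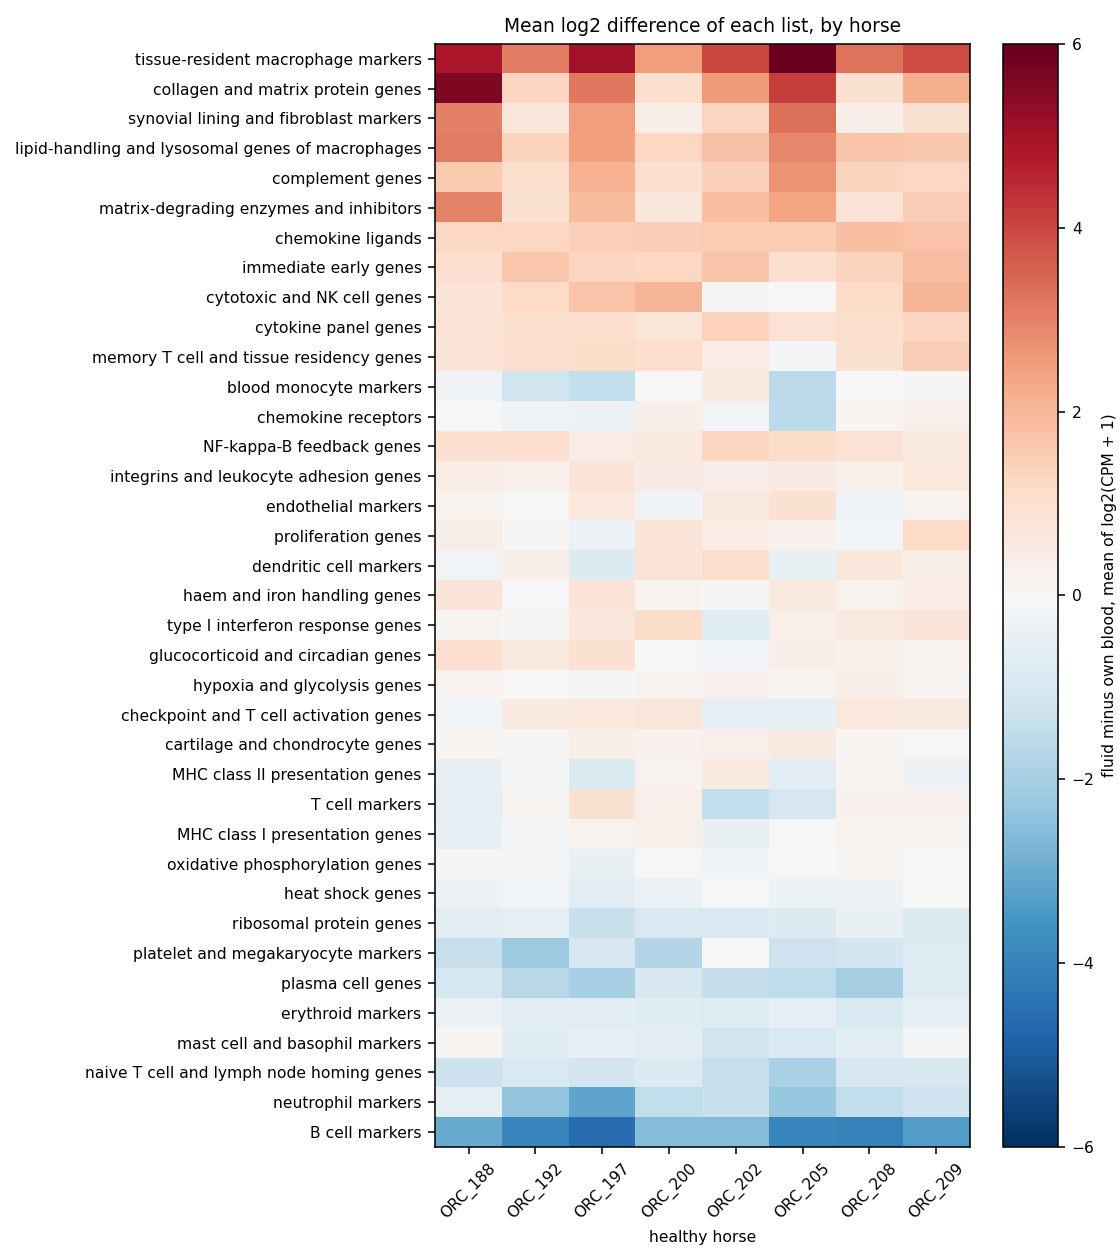
Mean log2 difference, fluid minus own blood, over the genes of each list found in both tables (down the page, ordered by median difference) in each healthy horse (across), on a colour scale from -6 to 6. Macrophage markers are above 0 in all 8 horses (2.50 to 5.89) and B cell markers below 0 in all 8 (-4.56 to -2.60), while T cell markers change sign between horses.

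Healthy horses with only 1 of the samples gave values the paired fit did not use: 3 fluids (ORC_196, ORC_198 and ORC_201) and 1 blood (ORC_207). With their group means 92.8% of the 2941 higher genes and 95.1% of the 2999 lower genes went the same way, and 98.1% and 98.5% of those that differed at least 2-fold. No test was run, since the blood side is 1 library. Of the 148 called named genes, 108 had all 3 fluids on the called side of that blood. ARSI, SUSD2 and PAX5 were not among them, since the fluid of ORC_196 lay above that blood. The fluid of ORC_196 stood apart. Its B cell markers summed to 2052 CPM, against 86.0 in ORC_198 and 133 in ORC_201, and 1935 in the blood of ORC_207. Its neutrophil markers summed to 1684, against 54.0 and 44.1 in the other fluids and 929 in that blood, and its resident macrophage markers to 529, against 9209.9 and 3904 in the other fluids and 298 in that blood. CCR7 was at 309 CPM in this fluid, within the range of the paired bloods. Its memory T cell genes summed to 2877, against 4084 and 5267 in the other fluids and 2651 in that blood.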

How the data were processed

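Messenger RNA of joint fluid cells and PBMC was sequenced in 31 libraries, of which the 16 of 8 healthy horses with both samples were compared here. The deposited values are a signal for each gene. They behave as counts of reads that had been divided by a size factor per library, separately for fluid and for blood. The submitters' processing notes name the build EquCab3.0 and the tools STAR 2.7.3, HTSeq, DESeq, cutadapt and Partek. The sources used here give no settings and no use of strand, so overlapping and antisense genes cannot be told apart. Gene positions are those of the deposited blood table. The deposited tables held 17538 genes for fluid and 17410 for blood, and 0 sample columns were left unused.

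Symbols found once in both tables (16799) were scaled to the same total per library (CPM), and the 12400 with a mean of at least 1 CPM were fitted on log2(CPM + 1). The fit used limma 3.58.1 under R 4.3.3, with the trend and robust options and the horse as a fixed block. The horse numbers pair the samples: they name the same animal, and fluid and blood of the same horse deviated from their tissue means together in 8 of 8 horses, with correlations over 0.1 (0.121 to 0.429, median 0.337). Each library comes from a separate animal within its tissue. No libraries of a tissue were near copies (smallest chi-square per gene 123 in fluid and 45.2 in blood, over 28 pairs each).

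Dividing each value by what 1 read is worth in its library gave whole reads, within 0.1 of a read, for 99.87% to 99.98% of values. The reads gave the depths and served edgeR 4.0.16 and DESeq2 1.42.0 as alternatives. Other alternatives were the pseudocount, the filter, the scaling, the block, the libraries used and weights per library.

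The 8 horses and the 37 gene lists (660 genes, 38 of them in more than 1 list) were chosen with earlier results of these data known, so no p-value is given for a list; a list is described by its counts and median beside those of all genes. The named genes were the 10 that rose most and the 10 that fell most among calls with 1 sign in 8 of 8 horses and a mean of at least 20 CPM in the higher tissue; from each list the 3 called genes of smallest p in its main direction and the 1 in the other; and 20 genes of interest, 4 of which were not analysed here. This gave 151 genes, 148 of them called. Other list members are named as examples and were chosen after their values were seen. Of the tested genes 1041 carry an Ensembl identifier only and are not named. Some genes that the rule or the lists hold are not reported here by name; the counts include them.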

Additional observations from a re-analysis of the deposited data

Results flagged for a closer look

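In 5 of the 151 named genes, the fluid minus blood difference of 1 horse stood apart from those of the other 7 by a gap above Dixon's 95% critical value for 8 samples, where chance marks about 1 in 20 groups. The horse was ORC_202 in 3 of them and ORC_205 in 2. A count of 5 in 151 does not exceed that chance share.

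CCL2, the monocyte attractant, differed by 9.71 on the log2 scale in ORC_202, against 4.43 to 6.75 in the other 7 horses. PLAUR, the urokinase receptor, differed by 4.61 in ORC_202, against 1.60 to 2.97 in the others. CA9, the carbonic anhydrase, differed by -2.36 in ORC_202, against -1.16 to -0.34. ICAM1, the adhesion molecule, differed by 4.75 in ORC_205, against 3.08 to 3.85. HAVCR2, the TIM-3 gene, differed by 0.28 in ORC_205, against 1.96 to 3.32.

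The fluid of ORC_202 also held the lowest summed T cell markers (1446 CPM) and the highest immediate early genes (19082), and that of ORC_205 the highest resident macrophage markers (20011). Whether these go with the gaps was not tested. All 5 genes passed the limma threshold with all horses and whichever horse was left out.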

How the results depend on the processing

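The counts of genes higher and lower in fluid stayed within 1.5 times under all 21 alternatives. At least 2-fold calls numbered 748 higher and 493 lower with a pseudocount of 5 CPM, in place of 1325 and 904. Leaving out 1 horse gave 2519 to 2954 higher and 2458 to 3081 lower genes, 1206 to 1358 and 855 to 986 of them at least 2-fold. Without the horse as a replicate block 2463 genes were higher and 2538 lower, and of the named genes DRB, DQB, ERAP1 and ISG20 lost their call; the block changed no other call of a named gene. edgeR called 2898 higher and 2816 lower and DESeq2 3189 and 3260. Leaving out both ORC_188 and ORC_205, chosen for their high matrix genes in an earlier look, gave 2468 and 2190. The share of higher genes among calls was 49.5%, and between 46.5% (TMM scaling) and 53.0% (without ORC_188 and ORC_205) under the alternatives.

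Of the 148 called genes 144 were called whichever horse was left out and 137 under every alternative that gave a value. CD3E, not called in any fit, turned to 0.08 with all healthy libraries, 0.00 with edgeR, 0.17 with weights per library and 0.21 without ORC_188 and ORC_205; with 1 horse left out it ranged from -0.17 (without ORC_197) to 0.20 (without ORC_202). HMOX1, not called either, turned to -0.02 with weights. The medians of the T cell, MHC class I, MHC class II, cartilage, endothelial and erythroid lists changed sign under some alternatives. Putting genes at 0 in blood at their bounds could not change the list medians of 1.91, 2.21 and 2.44. Each such gene (APOE, COL6A3, COL6A1 and BGN) stayed above its list median at the bound, so this does not test the medians. The difference in depth ranged from 3.13 to 5.43 M reads with 1 horse left out, and passed its exact permutation test without ORC_197 (5.43 M, n = 7, p = 0.0312). The floors of 3 reads cover counting error only; the 95% intervals come from limma and carry the spread between horses.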
